A study of Mus musculus with 8 samples.

Results

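Hyal3, Bambi and Cav2 encode a hyaluronidase family member, a decoy receptor of TGF-beta signalling and a caveolin, and each was higher in the parotid gland of diabetic db/db mice than in that of db/m mice. They are 3 of the 46 genes that could be named on the arrays of this study. The naming rests on 50 probes printed as 10 spots each, which are the probes that carry a transcript accession, out of 60691 probes in all. Hyal3 was matched through NM_178020 (probe A_51_P390480), Bambi through NM_026505 (A_51_P248819) and Cav2 through NM_016900 (A_51_P279552). The genes were chosen by their log2 intensities on these same arrays, which earlier had put them among the named genes with the largest excess in db/db, so the comparison between the groups is given below as a description and not as a test.

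The animals were male mice aged 16 weeks. The db/db mice lack a functional leptin receptor and weighed 40 to 55 g. The db/m mice, by convention carriers of the same allele on a single chromosome, were of the same age and weighed 25 to 30 g, so body weight differs together with genotype. All received chloral hydrate before the glands were taken. Each group had 4 arrays, numbered in the labels 1, 2, 5 and 8 for db/db and 2, 5, 7 and 8 for db/m. It is not spelled out that every db/m array came from a separate animal, so SDs measure the spread between these samples. Whole glands were ground up, and a change in the number of cells of a type and a change in RNA per cell cannot be told apart in such material.

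Hyaluronan is a long sugar polymer of the extracellular matrix that hyaluronidases cut into fragments. Hyal1 and Hyal2 are the main hyaluronidases of most tissues, and the role of their relative Hyal3 is less well understood. TGF-beta, activin and BMP ligands signal through paired serine/threonine kinase receptors, and Bambi resembles such a receptor but lacks the kinase domain, so that its presence in a receptor complex dampens the signal. Caveolins form the coat of caveolae, small pits of the plasma membrane that are abundant in endothelial cells, fat cells and muscle cells. Cav2 is usually found together with Cav1, on which it depends for its place at the cell surface.

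The surroundings of the genes in the genome bear on what their probes can separate. In the RefSeq annotation of assembly GRCm38.p6, Hyal3 on chromosome 9 overlaps Hyal1 and Naa80, an N-terminal acetyltransferase gene, and all lie on the same strand, with Hyal2 as the nearest gene before it. The place of the Hyal3 probe within the gene was not analysed here, so signal from transcripts that run through the overlap cannot be told apart from Hyal3. Cav2 on chromosome 6 overlaps no other annotated gene and is followed by Cav1, and Bambi overlaps none either. The design header of the arrays names an older build, mm9, so no probe coordinates are given.

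The sequence before the start of Cav2 is shown because it could be set beside that of Hyal3 in search of shared short motifs. The RefSeq table used here gives a promoter window for both and none for Bambi. In the 250 bases before the Cav2 start (GRCm38.p6, chr6:17280935-17281184, plus strand), capitals mark exact matches to the motifs searched.
Cav2: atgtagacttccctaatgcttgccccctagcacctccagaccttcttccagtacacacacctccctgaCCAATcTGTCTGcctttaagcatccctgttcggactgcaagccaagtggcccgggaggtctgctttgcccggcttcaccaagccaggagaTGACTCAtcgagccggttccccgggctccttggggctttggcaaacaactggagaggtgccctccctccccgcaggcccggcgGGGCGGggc
The matches are a CCAAT box (CCAAT), a Smad box (CAGACA, here on the minus strand as TGTCTG), an AP-1 site (TGANTCA) and a GC box (GGGCGG), 1 of each. On both strands of all 32851 promoter windows of this length, the CCAAT box was found in 33.8%, the GC box in 32.7%, the Smad box in 17.1% and the AP-1 site in 6.75%.

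The Hyal3 window (chr9:107581046-107581295, plus strand) lies inside the spans of Hyal1 and Naa80. It held 1 GC box and 1 Smad box, and the Cav2 window held both motifs as well. Only the 30 bases around the Smad box are printed, beside the same stretch of Cav2, with the match on the minus strand in capitals (chr9:107581199-107581228 and chr6:17280997-17281026).
Hyal3: aggggttaaaccTGTCTGgggggggaaccc
Cav2: ccctgaccaatcTGTCTGcctttaagcatc
Neither window held the TATA box TATAAA (12.4% of all windows), the E box CACGTG (6.02%), the forkhead site TGTTTAC (3.17%) or the palindromic Smad element GTCTAGAC (0.167%). The G and C content was 62.0% for Cav2 and 56.8% for Hyal3, against a median of 52.4% over all windows. CpG pairs numbered 10 in the Cav2 window and 6 in the Hyal3 window, with a median of 6. These matches describe letters in a fixed window and do not show binding of any factor.

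Values below are log2 intensities of a probe after subtraction of the array's 75th percentile, averaged over its spots, so that 0 is as bright as that percentile. They compare arrays for 1 probe, and the levels of different genes are not set against each other. All 4 db/m arrays were in one row of the slide and all 4 db/db arrays in the other, so slide row and group cannot be told apart. The 75th percentile signal lay between 317 and 379, and arrays of the same group correlated at 0.987 to 0.995 over 54590 tested probes, arrays of different groups at 0.972 to 0.982.

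Hyal3 was the named gene with the largest excess in db/db. In db/db replicates 1, 2, 5 and 8 it stood at -0.32, -0.97, -0.86 and -0.46, corresponding to processed intensities of 278, 185, 208 and 277. In db/m replicates 2, 5, 7 and 8 it stood at -1.80, -1.86, -1.76 and -1.75, with intensities of 91.0, 88.6, 103 and 101. The groups did not overlap, and the lowest db/db array exceeded the highest db/m array by 0.78. The group means and SDs over 4 arrays were -0.65 ± 0.31 for db/db and -1.79 ± 0.05 for db/m, which differ by 1.14 ± 0.15 (SE of the limma fit), or 2.21-fold.

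The spread of Hyal3 was uneven. The 4 db/m arrays spanned 0.11 on the log2 scale, whereas the 4 db/db arrays spanned 0.65. Within db/db, replicates 1 and 8 were high and replicates 2 and 5 low. The spots show that this spread lies between arrays: on replicates 1 and 8 the 10 spots ran from -0.41 to -0.25 and from -0.61 to -0.35, and on replicates 2 and 5 from -1.05 to -0.89 and from -0.98 to -0.78. No spot of the higher arrays reached down to a spot of the lower ones. The SD over the spots of a db/db array was 0.05 to 0.07.

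Bambi was dim on every array. Its raw signal was 3.63 to 8.20 times the local background, yet all 80 of its spots were marked as well above background by the scanner software. In db/db replicates 1, 2, 5 and 8 its log2 values were -2.04, -2.07, -2.17 and -1.72 (intensities 84.4, 86.2, 84.0 and 115). In db/m replicates 2, 5, 7 and 8 they were -2.62, -2.65, -2.82 and -2.95 (intensities 51.8, 51.1, 49.5 and 43.8). The groups did not overlap, with a gap of 0.45, and db/db replicate 8 stood above the other db/db arrays, which lay within a narrow band. The group means and SDs over 4 arrays were -2.0 ± 0.19 for db/db and -2.76 ± 0.15 for db/m, which differ by 0.76 ± 0.12 (SE), or 1.69-fold. With the normexp background correction, computed from the median spot signal with an offset of 50, the difference was 0.36 ± 0.07 in the same direction.

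The raw signal of Cav2 was 14.9 to 34.8 times the local background. Its log2 values in db/db replicates 1, 2, 5 and 8 were 0.48, 0.53, 0.65 and 0.68 (intensities 483, 523, 592 and 606). In db/m replicates 2, 5, 7 and 8 they were -0.12, 0.08, -0.18 and -0.38 (intensities 291, 340, 306 and 259). The groups did not overlap, with a gap of 0.41 between db/db replicate 1 and db/m replicate 5. The group means and SDs over 4 arrays were 0.59 ± 0.09 for db/db and -0.15 ± 0.19 for db/m, which differ by 0.74 ± 0.11 (SE), or 1.67-fold. Here the db/m arrays were the more spread, over 0.46 against 0.19 in db/db, the reverse of Hyal3.

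**Figure D1:**
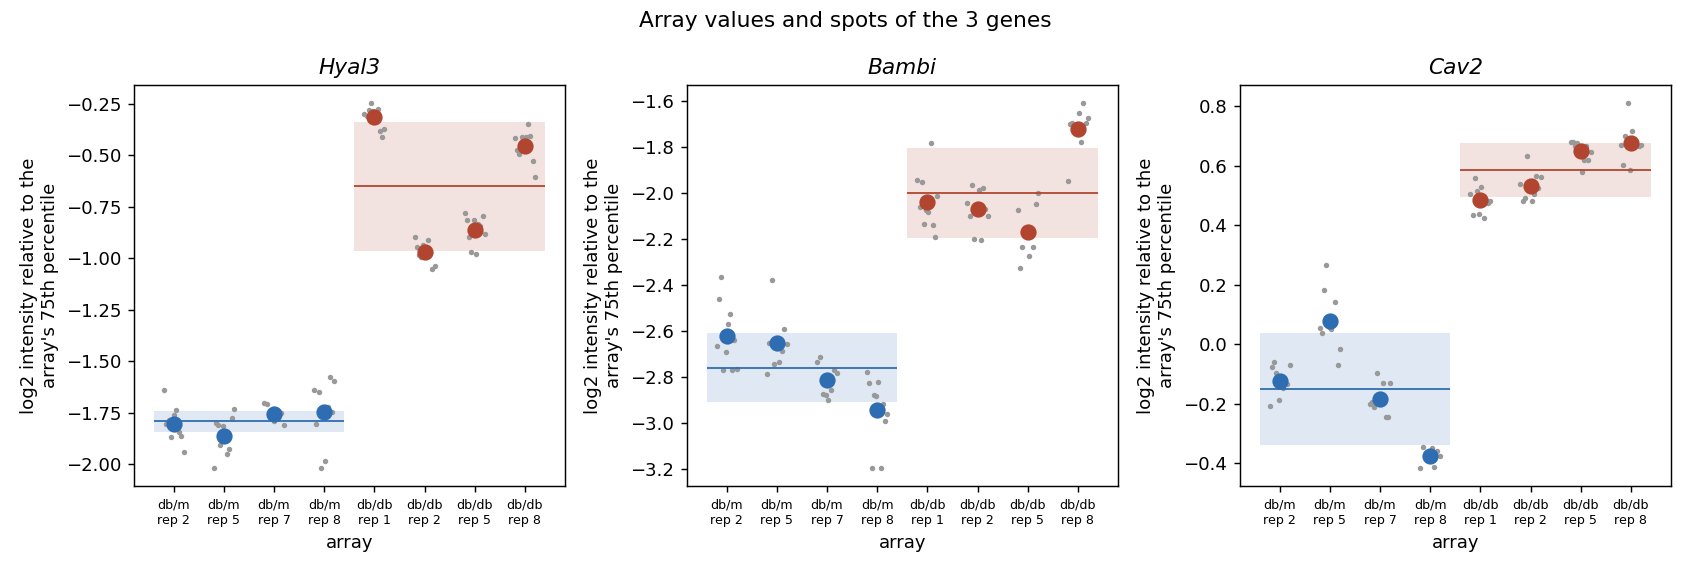
Log2 intensity relative to the array's 75th percentile (vertical axis) of Hyal3, Bambi and Cav2 on each array (horizontal axis), with the mean over spots as a large point, single spots as small grey points, the group mean as a line and 1 SD as a band, db/m in blue and db/db in red. The db/db arrays lie above the db/m arrays in each panel, with Hyal3 split within db/db into replicates 1 and 8 above and replicates 2 and 5 below.

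Each probe was printed at 10 places spread over the array, and the spread over these spots gives a measure of technical error within an array. Spots of an array share its labelling and scaling, so error from these is not covered. The genes were chosen by the mean over the same spots. Of 80 spots per gene over the 8 arrays, the software marked 4 of Hyal3, 3 of Bambi and 2 of Cav2 as outliers, all of them on db/m arrays, and these were left out. The SD over spots, averaged over arrays, was 0.08 for Hyal3, 0.11 for Bambi and 0.05 for Cav2, with a median of 0.07 over the 50 ten-spot probes. The standard error of an array value from its spots was at most 0.05 for each gene. The SDs between arrays of a group were 0.15 or more for Bambi in both groups, for Hyal3 in db/db and for Cav2 in db/m, while that of Hyal3 in db/m, 0.05, was about the size of its largest standard error from spots.

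Taken by spot position, the difference that chose the genes ran from 1.04 to 1.31 for Hyal3, from 0.62 to 0.85 for Bambi and from 0.66 to 0.79 for Cav2, and at all 10 positions of each gene the db/db values lay above the db/m values. For Hyal3 the lowest of 40 db/db spots, at -1.05, exceeded the highest of 36 db/m spots, at -1.58. For Cav2 these values were 0.42 and 0.27. For Bambi they were -2.33 and -2.37, nearly touching, and when spots marked as outliers were kept, 1 db/m spot at -2.25 lay above the lowest db/db spot. Positions share the same arrays and RNA and are not replicates of a condition, and their differences make up the averages by which the genes were chosen, so they add no support to them.

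**Figure D2:**
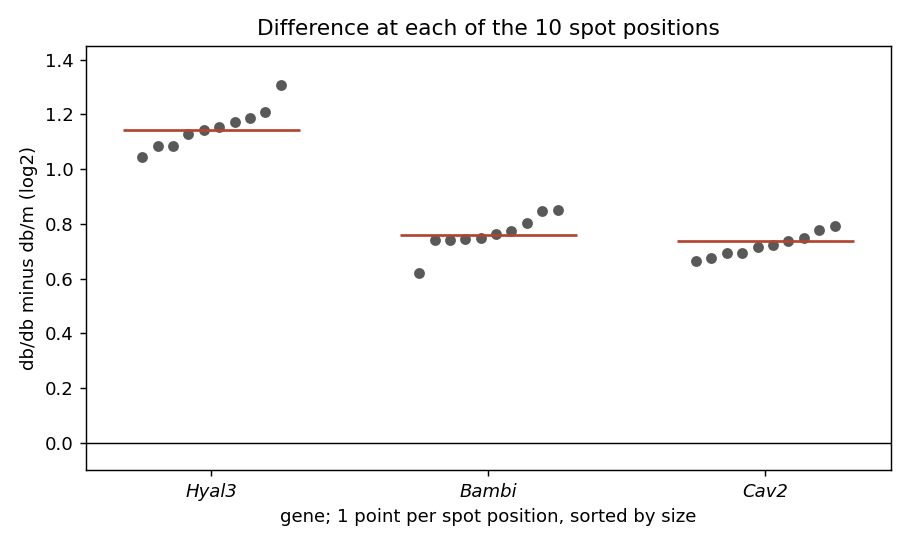
Difference of db/db minus db/m on the log2 scale (vertical axis) at each of the 10 spot positions of Hyal3, Bambi and Cav2 (points, sorted by size within a gene), with the limma difference over all spots as a line. The positions of Hyal3 lie between 1.04 and 1.31, above all those of Bambi and Cav2.

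The sizes of the changes were also compared within arrays. The excess of Hyal3 over Bambi was 0.38 ± 0.16 (SE, n = 4 each) larger in db/db than in db/m, and the excess over Cav2 was 0.40 ± 0.21 larger. For both, the within-array values of the groups overlapped. The changes of Bambi and Cav2 differed by 0.02 ± 0.10. These contrasts come from the comparison that chose the genes and were not tested.

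The arrays on which a gene was high within its group were not the same for the 3 genes. Bambi and Cav2 lay on the same side of their group mean on 7 of 8 arrays, the exception being db/db replicate 5. This was not particular to the pair. Among the other named genes, Apoe lay on the side of Bambi and Pex11a on the side of Cav2 on all 8 arrays. Hyal3 lay on the same side as Bambi on 3 of 8 arrays and on the same side as Cav2 on 2 of 8, all of them db/db arrays. In db/m the Hyal3 deviations ran from only -0.07 to 0.04, with standard errors from spots of 0.02 to 0.05. Its sides there are therefore not all beyond technical error. On db/db replicate 8 all 3 genes were above their group mean, by 0.19 for Hyal3, 0.28 for Bambi and 0.09 for Cav2. On db/m replicate 8 Bambi and Cav2 were at their lowest, at -0.19 and -0.23 from the mean. The same array was the lowest in db/m for other named genes, such as Apoe, Gsdmd and H2-Q7. It was the highest in db/m for others, such as Actb. Hyal3 was 0.04 above its mean there, within its standard error from spots of 0.05. These counts describe 8 arrays and were not tested.

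**Figure D3:**
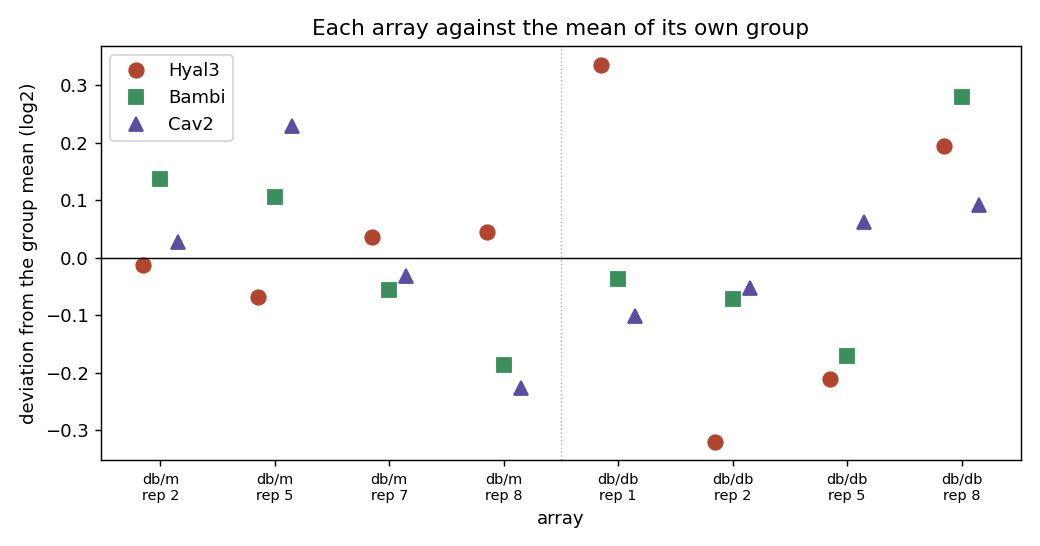
Deviation of each array from the mean of its own group on the log2 scale (vertical axis) for Hyal3 (circles), Bambi (squares) and Cav2 (triangles), with db/m arrays on the left and db/db arrays on the right. Bambi and Cav2 fall on the same side of 0 on 7 of 8 arrays, which is not particular to this pair. Hyal3 has its widest deviations, 0.34 and -0.32, on db/db replicates 1 and 2.

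Likeness to other named genes was measured as the root-mean-square difference between profiles over the 8 arrays. With each profile centred on its own 8-array mean, the genes closest to Hyal3 among 43 others were Mzb1, a plasma cell endoplasmic reticulum protein (0.19), Gpi1, a glycolytic isomerase (0.23), and Gsdmd, the pore-forming protein of pyroptosis (0.27), against a median of 0.51 over all others. Bambi and Cav2 were each the other's closest gene (0.12), followed for both by Gpi1 (0.14 and 0.13) and by Prdx2, a peroxiredoxin (0.15 and 0.13). This measure contains the group difference by which the genes were chosen. With each profile centred on its group means instead, Cav2 was closest to Pex11a, a peroxisome division gene (0.07), Rab5a, an early endosome GTPase (0.09), and Cep41 (0.09). Bambi was closest to the myelin gene Mbp (0.10), Mzb1 (0.12) and Pex11a (0.12), and Hyal3 to Gm9789 (0.12), the autophagy gene Atg3 (0.12) and Lhx1, a homeobox gene (0.13). Cav2 then ranked 6 among the genes most like Bambi (0.12), and Bambi ranked 21 (0.20) and Cav2 ranked 35 (0.25) among those most like Hyal3. A profile without any spread would differ from Hyal3, Bambi and Cav2 by 0.20, 0.15 and 0.13, and the median over all others was 0.21, 0.17 and 0.17. The group-centred measure thus favours genes with little spread, and no shared behaviour between arrays is read from it.

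Set against the other named genes, the difference of Hyal3 ranked 1, that of Bambi 8 and that of Cav2 9 of 43 tested protein coding genes. Prdx2 stood just before Bambi (0.78) and the histocompatibility gene H2-Q7 just after Cav2 (0.65), and the median difference of the 43 genes was 0.23. Over all tested probes the median was 0.03. A larger difference than that of Hyal3 was found for 2.03% of all tested probes, larger than that of Bambi for 5.88% and larger than that of Cav2 for 6.31%. With limma and Benjamini-Hochberg adjustment over all tested probes, all 3 genes had an adjusted p below 0.05 and were higher in db/db, as did 15.9% of all tested probes (27.8% in either direction). All db/db arrays lay above all db/m arrays for each of the 3 genes and for 16.9% of tested probes. The choice of the genes fixed both counts, and nothing is read from them.

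**Figure D4:**
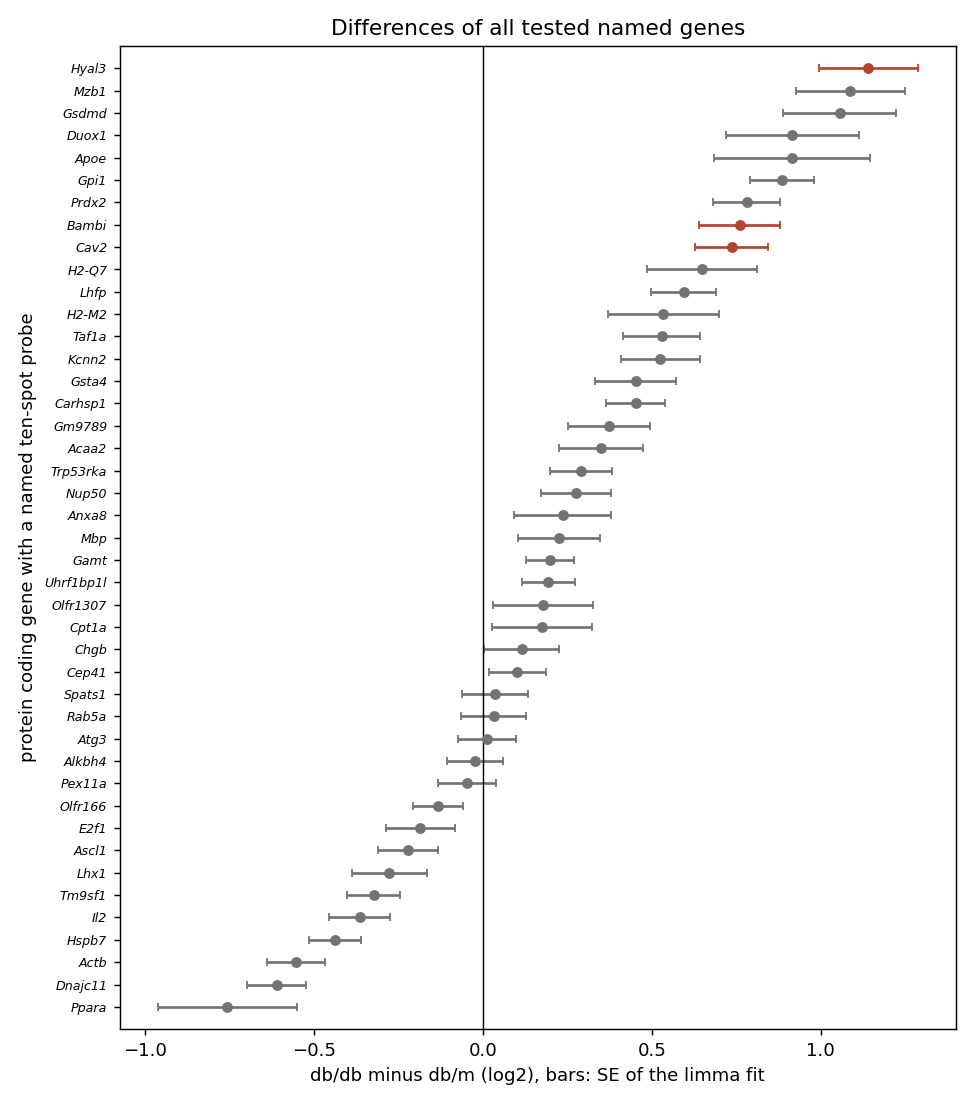
Difference of db/db minus db/m on the log2 scale (horizontal axis, bars give the SE of the limma fit, n = 4 per group) for the 43 tested protein coding genes with a named ten-spot probe (vertical axis), with Hyal3, Bambi and Cav2 in red. Hyal3 is at the top with 1.14, and Bambi and Cav2 are at ranks 8 and 9 with 0.76 and 0.74.

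The partners of these genes could not be followed. Of 23 further genes of hyaluronan synthesis, binding and breakdown, among them Hyal1, Hyal2, the synthases Has1 to Has3 and the receptor Cd44, 0 had a named probe. The same held for 40 genes of TGF-beta and BMP signalling, including the ligands, receptors, Smads and Id genes, and for 13 caveola genes, including Cav1 and the cavins. Their levels were not analysed here.

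Markers of the cell types of the gland were nearly as sparse, with 2 of 52 genes in 11 lists carrying a named probe. No marker of acinar, duct, myoepithelial, endothelial, fat or connective tissue cells was among them, so the labelled tissue could not be checked against its defining genes. Of 5 B and plasma cell genes Mzb1 was measured. It stood at 1.18, 1.00, 0.65 and 1.43 in db/db replicates 1, 2, 5 and 8 and at 0.20, 0.01, -0.16 and -0.12 in db/m replicates 2, 5, 7 and 8, so its groups did not overlap. Of 4 Schwann cell genes Mbp was measured. It stood at -1.70, -1.69, -1.76 and -1.23 in db/db and at -1.88, -1.73, -1.83 and -1.85 in db/m. Its highest array, db/db replicate 8, was also the highest for Mzb1, Bambi and Cav2, though not for Hyal3. The same array was the highest for further named genes, such as Apoe, Gpi1 and Prdx2. This trait is therefore not particular to the 2 markers or to Bambi and Cav2. The part of these cell types in the values of Hyal3, Bambi and Cav2 was not tested.

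**Figure D5:**
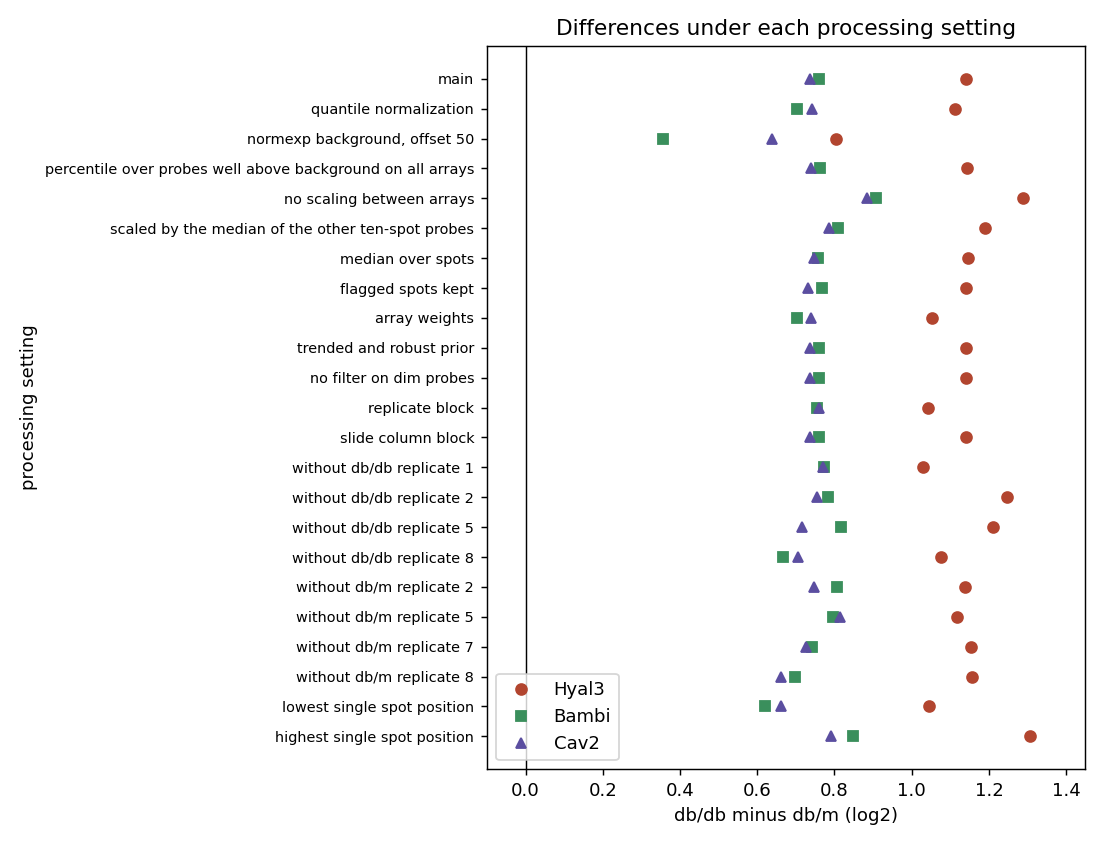
Difference of db/db minus db/m on the log2 scale (horizontal axis) for Hyal3 (circles), Bambi (squares) and Cav2 (triangles) under the main processing, shown first, and each of 22 alternatives (vertical axis). Of these, 20 are fits with another setting and the others are the lowest and highest single spot position. All values lie above 0, and the normexp background gives the lowest values of Hyal3 (0.80), Bambi (0.36) and Cav2 (0.64).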

How the data were processed

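RNA of 8 parotid glands was measured on 1-colour arrays, 1 per sample, grouped by sample title. Per the labels' protocols, ribosomal RNA was removed and the rest labelled with Cy3 by random priming. The deposited intensities came from Agilent Feature Extraction 11.0.1.1 (per the file headers and the submitters' processing notes), background-corrected within each array and unscaled between arrays. A log2 table of the series holds none of the 3 probes and was not used.

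The processed intensity of each spot was put on the log2 scale and reduced by the array's 75th percentile, taken over non-control spots. Outlier spots (18 to 55 of each array's spots) were dropped before spots of a probe were averaged. Of 60691 probes (132 others set aside), 54590 had a value on every array and signal well above background on 4 or more of 8. They entered limma 3.58.1 (R 4.3.3; lmFit, eBayes, db/db minus db/m, two-sided, Benjamini-Hochberg), a fit tested on simulated data. No non-control spot was saturated; precision is limited by the number of arrays. Normexp used the median spot signal, since the files hold no mean signal. Tables and plots used Python 3.11.15, pandas 2.3.3 and matplotlib 3.10.9.

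Accessions were matched without versions to RefSeq. The members, lists, motifs and likeness rule (the 3 closest named genes) were chosen with earlier results of these data known. Alternatives changed the scaling, background, spot summary, filter, prior, array weights and blocks, or left out each array. The lowest and highest single spot position of each gene were counted with them.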

Additional observations from a re-analysis of the deposited data

How the results depend on the processing

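The 22 alternatives were 20 other fits and the lowest and highest single spot position of each gene. The differences of Hyal3, Bambi and Cav2 kept their direction under each alternative. Moves were set against the pooled SD between arrays, 0.23 for Hyal3, 0.17 for Bambi and 0.15 for Cav2. This SD is wider than the SE of a difference, so a move below it can still exceed the SE. For Cav2 the move was below 1 SD in all 22 alternatives. For Hyal3 and Bambi this held for 21, the exception being the normexp background with 0.80 and 0.36. That alternative changed the background method, the offset and the input signal together, and the cause was not tested. The trended prior, the unfiltered fit and the block on slide columns leave a difference unchanged by construction. Leaving out an array cannot reverse a difference between groups that do not overlap. All alternatives use the arrays by which the genes were chosen, so the kept direction adds no support. Leaving out each array gave 1.03 to 1.25 for Hyal3, 0.67 to 0.82 for Bambi and 0.66 to 0.81 for Cav2, and 19.3% to 29.6% of all tested probes called. With the replicate block the differences were 1.04, 0.75 and 0.76, and 15.7% of all tested probes were called against 27.8%. That block uses the numbers 2, 5 and 8 alone, which occur in both groups, and same-numbered arrays showed no sign of pairing (correlations of deviations of -0.02, -0.13 and -0.17). A block on slide columns, an alternative added after seeing the data, gave 23.0%. Of the called probes 57.1% were higher in db/db, against 46.0% with normexp, 80.0% without scaling between arrays and 50.8% with quantile normalization. Without scaling the median of all tested probes stood at 0.18 and the genes at 1.29, 0.91 and 0.88. Among 18 sets of 4 values of these genes (array values, spot SDs and the software's errors), 0 had a value far from the others by Dixon's test at its 95% level. The raw signal of Bambi was 3.63 to 8.20 times the local background.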
